A study of Homo sapiens with 6 samples.

Results

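The genes described here are CXCL1, CXCL2, CXCL3, CXCL5, CXCL6 and CXCL8, a set of CXC chemokines that attract neutrophils. They were taken by gene symbol, and all 6 were found among the 17100 transcripts of the count table. The group was chosen from results of the same comparison, guadecitabine against vehicle, so that its expression values are given as a description, with no p-value, and their calls are fixed by that choice. MDA-MB-231 is a human breast adenocarcinoma cell line that grows without estrogen or progesterone receptor. Guadecitabine (SGI-110) is a dinucleotide of decitabine, which is taken into DNA and traps DNA methyltransferases, so that methylation is lost as cells divide. One group received 1 µM guadecitabine for 96 h and was harvested after a further 24 h without the drug, the other received vehicle, and each group had 3 RNA sequencing libraries. The study's methods name 3 independent experiments, all in this 1 cell line.

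CXC chemokines are small secreted proteins that guide leukocytes along a concentration gradient. Those with a glutamate-leucine-arginine motif before the first cysteines, which all of the genes here encode, bind CXCR2 on neutrophils, and CXCL8 and CXCL6 also bind CXCR1. In many epithelial cells their genes are mostly silent or low until interleukin 1, tumor necrosis factor or a microbial ligand activates NF-κB, a family of transcription factors held in the cytoplasm by IκB proteins. Their transcripts are short-lived because AU-rich elements in the 3′ untranslated region (UTR) recruit decay factors.

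The 6 genes lay on chromosome 4 within 359 kb, and each had 4 exons in GENCODE release 44 on GRCh37. CXCL8 spanned chr4:74606286-74609433, CXCL6 chr4:74702395-74704477 and CXCL1 chr4:74735110-74737025, all on the plus strand. CXCL5 spanned chr4:74861359-74864394, CXCL3 chr4:74902306-74904406 and CXCL2 chr4:74962757-74964912, all on the minus strand. Every promoter, taken as the 250 bases before the GENCODE start site and the 50 bases after it, held the letters GGAATTTCC, a strong form of the NF-κB (κB) site. They are shown here in a 29-base window because the motif is shared by all 6 genes while the flanks fall into families. Capitals mark GGAATTTCC, each line reads 5′ to 3′ on the gene's own strand, and the build is GRCh37 (hg19).
CXCL8 (chr4:74606185-74606213, plus strand): tgcaaatcgtGGAATTTCCtctgacataa
CXCL1 (chr4:74735022-74735050, plus strand): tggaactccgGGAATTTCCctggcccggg
CXCL2 (chr4:74964971-74964999, minus strand): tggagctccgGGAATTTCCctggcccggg
CXCL3 (chr4:74904466-74904494, minus strand): tggagctccgGGAATTTCCctggcccggc
CXCL5 (chr4:74864466-74864494, minus strand): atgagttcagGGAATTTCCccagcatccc
CXCL6 (chr4:74702296-74702324, plus strand): ctgagttcagGGAATTTCCccagcatccc

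Within these windows CXCL1 and CXCL2 shared 28 of 29 bases, CXCL2 and CXCL3 shared 28, and CXCL1 and CXCL3 shared 27. CXCL5 and CXCL6 shared 28 of 29, although they lie on opposite strands. All other pairs shared 14 to 19 bases, of which the motif itself gives 9. The first base of the motif lay 77 or 78 bases before the start site in CXCL1, CXCL2 and CXCL3 and 89 to 91 bases before it in CXCL5, CXCL6 and CXCL8. The start sites of the deposited transcript models differed from those of GENCODE by 1 bp for CXCL1 and by 52 to 122 bp for the others, so that the motif's distance depends on the annotation. In the deposited models of CXCL2, CXCL3 and CXCL6 the motif lay inside the transcript.

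GGAATTTCC, searched on both strands, was present in 74 of 19521 promoters, 1 for each canonical protein-coding transcript (0.379%). The looser letters GGANNTTCC, which include it, were present in 862 (4.42%) and likewise in all 6 chemokine promoters. Other motifs of inducible genes were found in single members. TGANTCA, the AP-1 site, was found in the CXCL8 promoter 137 to 131 bases before the start and in 5.41% of all promoters. TTGCNNAA, a C/EBP site, was found in the CXCL2 promoter 188 to 181 bases before the start and in 8.07% of all promoters. TATAAA, the TATA box, was found in the CXCL8 promoter 31 to 26 bases before the start and in 9.57% of all promoters. A match of letters is a description of the reference sequence, and no binding was measured in these cells.

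CpG dinucleotides, the sites at which DNA is methylated, were unevenly spread over the promoters. CXCL1, CXCL2 and CXCL3 had 22, 22 and 24 CpGs in 300 bp, close to the median of 23 over all promoters. CXCL5, CXCL6 and CXCL8 had 9, 8 and 4, and 15.2% to 25% of promoters had as many or fewer. Methylation was not measured in this series, so that the counts describe the reference sequence alone.

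The 3′ UTRs were rich in ATTTA, the core of the AU-rich element. The median over 16590 UTRs of at least 200 bp was 1.79 ATTTA per kb. CXCL2 had 14.0 per kb (10 in 716 bp), CXCL3 10.4 (7 in 673 bp), CXCL1 7.77 (6 in 772 bp) and CXCL8 7.19 (9 in 1252 bp). CXCL5 had 5.51 per kb (11 in 1995 bp) and CXCL6 5.36 (6 in 1119 bp), and all 6 values were higher than in at least 93.0% of UTRs. The longest stretches are shown for the members with the most copies side by side, with each ATTTA in capitals. They begin 146 and 650 bases into the 3′ UTR of CXCL2 and CXCL8.
CXCL2, 3′ UTR bases 146 to 166: ATTTATTTATTTATTTATTTA
CXCL8, 3′ UTR bases 650 to 673: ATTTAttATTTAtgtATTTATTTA

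Library totals were 17602570 to 22277442 counts for vehicle and 8792127 to 21410849 for guadecitabine. Vehicle replicate 3 stood apart. It had 20 genes at 0, whereas the other 5 libraries had 1593 to 2517. Over 1760 genes with at most 1 count in each of vehicle replicates 1 and 2 and at most 3 counts in all guadecitabine libraries together, it had a median of 19 counts, or 8.02 counts per kb of counted exon, and the other libraries had a median of 0. Results of the genes with the lowest vehicle counts are therefore given with and without that library. In the other 5 libraries ESR1 and PGR, the hormone receptor genes, were at 0 or 1 counts, which fits the label of the cell line. VIM, a mesenchymal filament gene, was at 32223 to 82480 there. Of epithelial genes in the same list, CDH1 had 6 to 38 counts in those libraries, EPCAM 90 to 328 and KRT18 5901 to 13532. ERBB2 (HER2) had 552 to 1891. In vehicle replicate 3, ESR1 had 67 counts and PGR 43. Of the 10 cell line markers listed 8 were tested, and edgeR called 2 higher and 3 lower in the treated cells, beside 19.3% and 18.4% of all genes tested. VIM and CD44 were the higher genes and ERBB2, CDH1 and EPCAM the lower. The call of VIM held in 7 of 13 alternative settings and that of CDH1 in 5 of 12.

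After guadecitabine all 6 chemokine transcripts were 20.6 to 458 times as abundant as after vehicle, as fitted by edgeR, and in no gene did the groups overlap. All 6 passed the filter on low counts, CXCL5 and CXCL6 through the guadecitabine libraries alone. Of the genes given below with an adjusted p, IL1A, TNF, CXCL10, EPGN, AFP and IL1R2 also needed those libraries to pass, which limits their p-values. All 6 were called higher at an adjusted p under 0.05, where 19.3% of the 13322 genes tested were called higher and 18.4% lower, and every guadecitabine library lay above every vehicle library in 26.7% of them. These counts follow from the way the genes were chosen. RNA was measured in whole cultures, so that more cells with a transcript and more transcript per cell cannot be told apart. Normalized counts are TMM-scaled counts at the mean library total of 17911210, a log2 fold change is the fitted difference of guadecitabine minus vehicle, and errors of levels are SDs over 3 libraries.

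CXCL8 (interleukin 8), the archetype of the family and the ligand of both CXCR1 and CXCR2, was the most abundant member in both groups. It had 593, 631 and 819 normalized counts in vehicle replicates 1, 2 and 3. In guadecitabine replicates 1, 2 and 3 it had 29496, 33368 and 32423. The lowest treated library was 36.0 times the highest vehicle library, and the treated libraries lay close together. The log2 fold change was 5.54 (SE 0.159), or 46.5-fold, and 5.70 (SE 0.152) without vehicle replicate 3.

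CXCL1, CXCL2 and CXCL3 are the GRO chemokines, close copies of each other that signal through CXCR2. CXCL1 had 141, 149 and 183 normalized counts in the vehicle libraries and 14633, 15875 and 16179 in the guadecitabine libraries. Its lowest treated value was 80.0 times the highest vehicle value, with a log2 fold change of 6.62 (SE 0.147), or 98.2-fold. CXCL2 had 148, 137 and 201 normalized counts with vehicle and 3064, 3763 and 3290 with guadecitabine. CXCL1 and CXCL2 thus started from like levels and ended far apart, and the log2 fold change of CXCL2 was 4.37 (SE 0.175), or 20.6-fold. CXCL3 had 44.7, 45.4 and 42.3 normalized counts with vehicle and 1251, 1454 and 1323 with guadecitabine, a log2 fold change of 4.92 (SE 0.13), or 30.3-fold. It had the tightest vehicle values of the 6 and was the only member in which vehicle replicate 3 was not the highest vehicle library. Without that library the log2 fold changes were 6.75, 4.56 and 4.89. Of the 50-base stretches of their exons, 95.1% (CXCL1), 90.1% (CXCL2) and 95.1% (CXCL3) occurred nowhere else in the genome, and all 100-base stretches were unique, so that some short reads could have been divided between the copies.

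CXCL5 and CXCL6, another pair of close copies, were at or near 0 in vehicle cells. CXCL5 had 3, 0 and 20 raw counts in vehicle replicates 1, 2 and 3, and 3862, 1850 and 2728 in guadecitabine replicates 1, 2 and 3. At 8.02 counts per kb, the median that vehicle replicate 3 showed over otherwise silent genes, its exon length would give 20 counts, the number seen there. CXCL6 had 0, 0 and 6 raw counts with vehicle and 109, 61 and 109 with guadecitabine, and the same median would give 13.3 counts in vehicle replicate 3. For both genes the vehicle libraries 1 and 2 were at or under the floor of 3 counts, and only replicate 3 was above it. The fitted log2 fold change of CXCL5 was 8.84 (SE 0.458), or 458-fold, and that of CXCL6 was 5.83 (SE 0.768), or 56.8-fold. Without vehicle replicate 3 the fitted values were 10.94 (SE 0.377) and 9.64 (SE 0.671), which depend on the prior count. Over vehicle replicates 1 and 2 pooled, which held 3 counts of CXCL5, its mean with guadecitabine was 2140 times as high, with an exact 95% Poisson interval of 732 to 10377 that covers the counting error of those 3 counts only. CXCL6 was at 0 in both, and against a floor of 3 counts per library its lowest treated library was at least 27.9-fold higher. The size of both changes therefore rested on 1 library, while CXCL5 and CXCL6 with guadecitabine had 2753 to 3763 and 88.2 to 124 normalized counts.

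**Figure D1:**
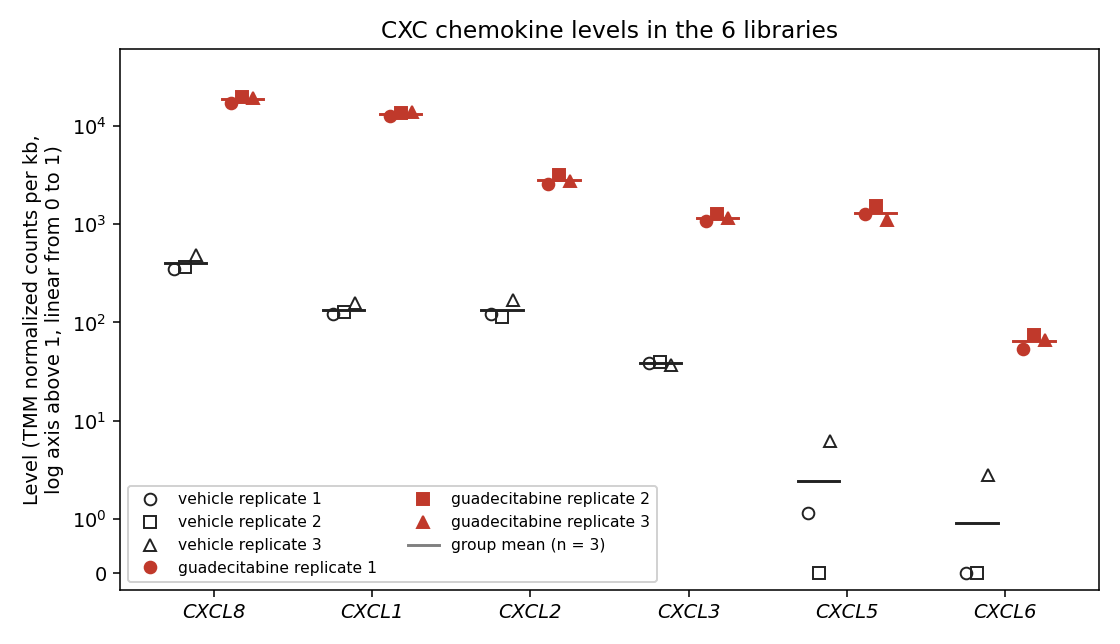
Levels of the 6 chemokine transcripts in TMM normalized counts per kb of counted exon (vertical axis, logarithmic above 1 and linear from 0 to 1), with 1 point per library and a line at each group mean (n = 3). Every guadecitabine library (red) lies above every vehicle library (black, open), and for CXCL5 and CXCL6 vehicle replicate 3 lies above vehicle replicates 1 and 2.

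**Figure D2:**
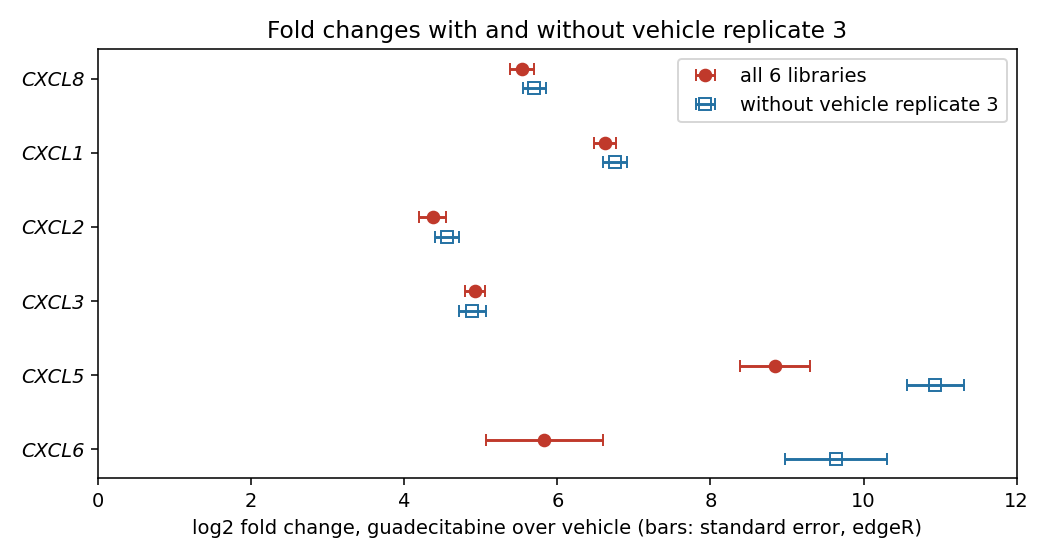
Fitted log2 fold changes of guadecitabine over vehicle (horizontal axis) with standard errors from edgeR, for all 6 libraries (circles) and without vehicle replicate 3 (squares). The 2 values of CXCL8, CXCL1, CXCL2 and CXCL3 lie within 0.19 of each other, whereas CXCL5 moves from 8.84 to 10.94 and CXCL6 from 5.83 to 9.64.

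Levels were compared between genes per kb of counted exon. With vehicle the order was CXCL8 at 399 ± 70.8 normalized counts per kb, CXCL1 at 135 ± 19.1, CXCL2 at 135 ± 28.6, CXCL3 at 38.3 ± 1.43, CXCL5 at 2.44 ± 3.29 and CXCL6 at 0.927 ± 1.61 (SD, n = 3). CXCL1 and CXCL2 did not differ beyond their spread, nor did CXCL5 and CXCL6. Without vehicle replicate 3 the vehicle levels of CXCL5 and CXCL6 were 0.574 and 0 normalized counts per kb. The vehicle ranks given below include that library. With guadecitabine the order was CXCL8 at 18629 ± 1184, CXCL1 at 13313 ± 701, CXCL2 at 2803 ± 297, CXCL5 at 1292 ± 205, CXCL3 at 1165 ± 89.4 and CXCL6 at 64.8 ± 10.9 normalized counts per kb. CXCL5 and CXCL3 did not differ beyond their spread, and CXCL5 was the higher in replicates 1 and 2 and the lower in replicate 3. Among all 17100 transcripts ranked by level per kb, CXCL8 went from rank 3772 to rank 53 and CXCL1 from 6936 to 89. CXCL2 went from 6937 to 602, CXCL3 from 9958 to 1579, CXCL5 from 14871 to 1412 and CXCL6 from 16870 to 8962. CXCL6 was the lowest of the 6 in each guadecitabine library.

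The make-up of the chemokine transcripts differed between the groups. CXCL8 made up 56.2 ± 0.92% of the summed level per kb with vehicle and 50 ± 0.197% with guadecitabine (SD, n = 3). The share of CXCL1 was 19.0 ± 0.574% with vehicle and 35.7 ± 0.93% with guadecitabine, and that of CXCL2 was 18.9 ± 1.19% and 7.51 ± 0.422%. CXCL3 made up 5.50 ± 1.03% and 3.12 ± 0.0987%, CXCL5 0.303 ± 0.378% and 3.47 ± 0.491%, and CXCL6 0.109 ± 0.189% and 0.173 ± 0.0192%. With vehicle the shares of CXCL5 and CXCL6 were highest in replicate 3, at 0.727% and 0.327%. The shares of CXCL8, CXCL1, CXCL2, CXCL3 and CXCL5 did not overlap between the groups, and those of CXCL6 did. The 6 genes together took 0.00497%, 0.00518% and 0.00739% of all counts in vehicle replicates 1, 2 and 3, with 95% Wilson intervals between 0.00467% and 0.00775%. In guadecitabine replicates 1, 2 and 3 they took 0.298%, 0.326% and 0.313%, with intervals between 0.296% and 0.33%, which cover counting error only.

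**Figure D3:**
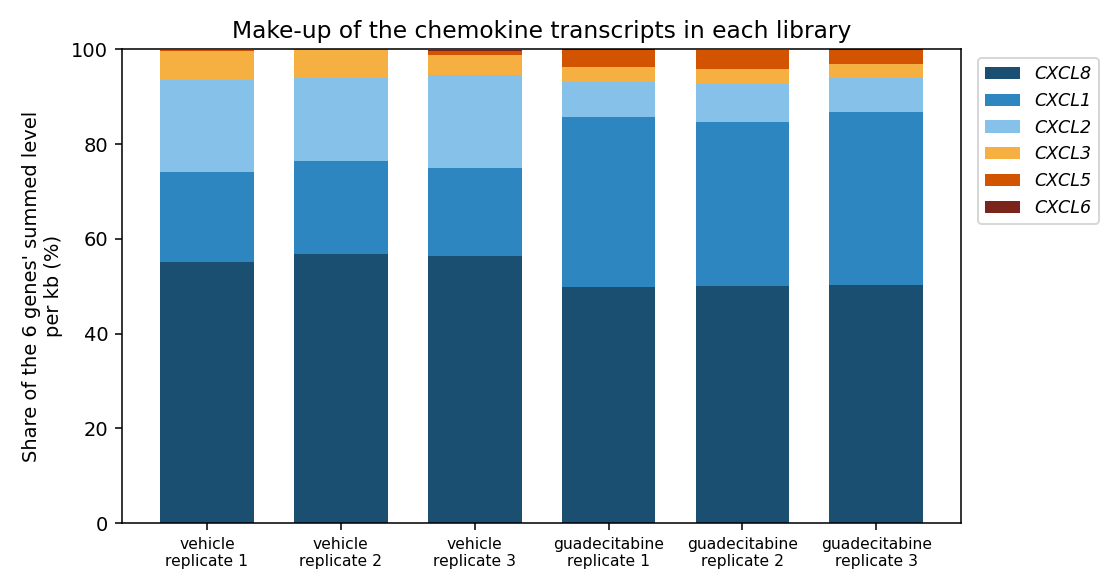
Share of each gene in the summed level per kb of the 6 chemokine transcripts (vertical axis, %) in each library, stacked to 100%. CXCL8 makes up 49.8 to 56.9% of every bar, CXCL1 widens from 18.4 to 19.6% in the vehicle bars to 34.7 to 36.5% in the guadecitabine bars, and CXCL2 narrows from 17.5 to 19.7% to 7.21 to 8.0%.

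Within the guadecitabine group the members moved little around their means. Replicate 2 was the highest library for all but CXCL1, which was highest in replicate 3, and replicate 1 was the lowest for all but CXCL5. The deviations from the group mean of log2 normalized counts lay between -0.27 and 0.24, and the SD ranged from 0.08 for CXCL1 to 0.25 for CXCL6. Guadecitabine replicate 2, the library with the fewest counts, was thus not the lowest for any member after scaling.

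The genes that share the chromosome 4 region were examined to show how far the change reached along it. The chemokine cluster also holds PF4V1, PF4 and PPBP, chemokine genes of platelets, which lie 113, 240 and 246 kb from the start of CXCL8 and hence between members. PF4V1 had 0, 0 and 17 counts with vehicle and 1, 2 and 0 with guadecitabine. PF4 had 1, 5 and 15 and then 6, 3 and 4, and PPBP had 0, 0 and 18 and then 0, 0 and 1. None of these had enough counts to be tested, and each was highest in vehicle replicate 3. They show that genes lying among the 6 members were at 0 to 6 counts in every guadecitabine library.

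Of 14 other genes that start within 1 Mb of the cluster, platelet genes included, 9 were tested, 2 were higher and 0 were lower, beside 19.3% and 18.4% of all genes. EREG, an EGF receptor ligand 625 kb from the start of CXCL8, had 628, 508 and 661 counts with vehicle and 1962, 634 and 1318 with guadecitabine, a log2 fold change of 1.36 (SE 0.122, edgeR adjusted p = 4.73e-05). EPGN, a further ligand of that receptor 568 kb away, had 1, 0 and 11 counts and then 107, 38 and 37, a log2 fold change of 4.24 (SE 0.877, adjusted p = 0.00506) with all libraries and 6.72 (adjusted p = 8.78e-05) without vehicle replicate 3. AREG, the next ligand gene, differed by -0.08 on the log2 scale (adjusted p = 0.571) and MTHFD2L, the nearest tested neighbour beyond CXCL2, by 0.03 (adjusted p = 0.92). Without vehicle replicate 3, 4 of 9 neighbours were called higher, beside 3002 of the 13296 genes tested in that fit. Called in addition were AFP, an albumin-like fetal serum protein gene, with a log2 fold change of 4.36 (adjusted p = 0.00402) and PARM1 with 0.83 (adjusted p = 0.0489). AFP had 0, 1 and 24 counts with vehicle and 10, 10 and 14 with guadecitabine, and with all libraries its log2 fold change was 0.99 (adjusted p = 0.527). None of the 14 promoters held GGAATTTCC, and 1, that of COX18, held GGANNTTCC.

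**Figure D4:**
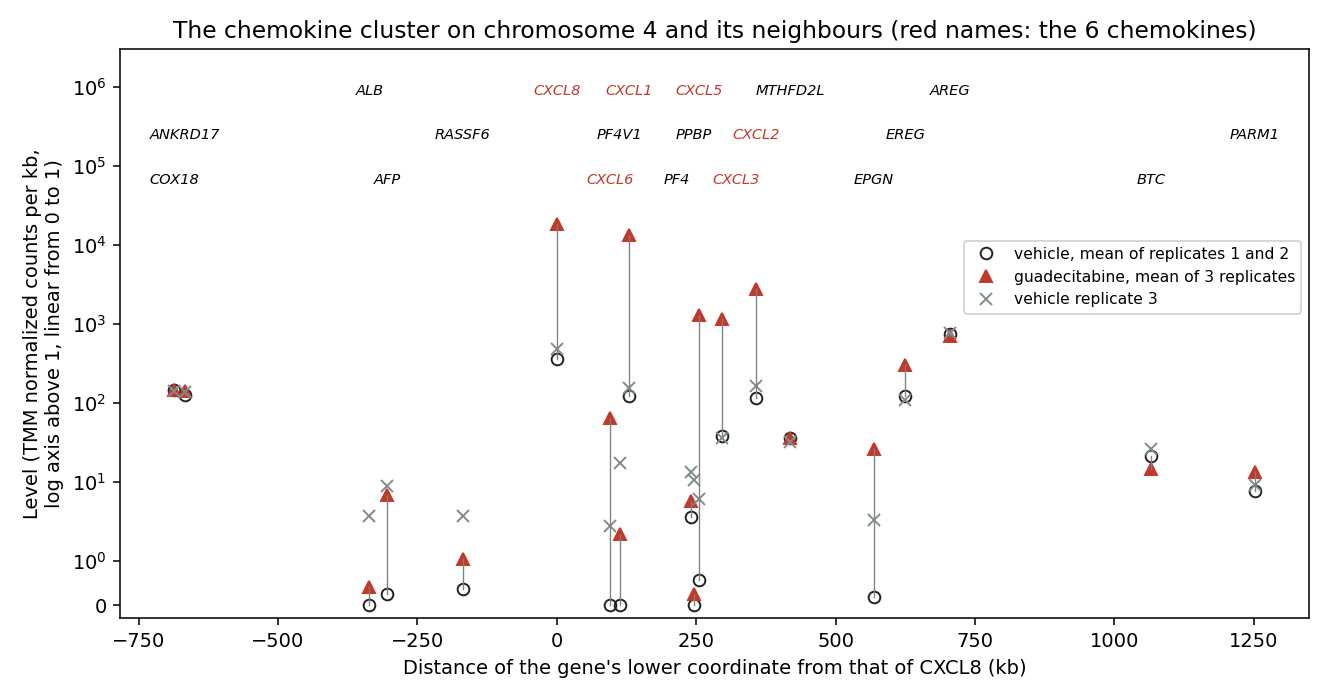
Level in TMM normalized counts per kb of counted exon (vertical axis, logarithmic above 1 and linear from 0 to 1) against distance from CXCL8 in kb (horizontal axis) for the 6 chemokine genes (red names) and 14 neighbours, as the mean of vehicle replicates 1 and 2 (circles), vehicle replicate 3 (crosses) and the mean of 3 guadecitabine libraries (triangles). With guadecitabine the 6 chemokines lie between 64.8 and 18629 normalized counts per kb, and the platelet chemokines PF4V1, PF4 and PPBP among them lie under 10.

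The same κB letters were then followed outside the cluster. Of 68 other genes with GGAATTTCC in the promoter, 54 were in the table and 47 were tested, of which 19 (40.4%) were higher and 4 (8.51%) lower, beside 19.3% and 18.4% of all genes. Their median log2 fold change was 0.56, against 0.02 for all genes tested. Without vehicle replicate 3, 22 of 47 were higher (46.8%) and 2 lower, beside 3002 and 2575 of the 13296 genes tested in that fit. The genes with the lowest p, chosen after their values were seen, were ICAM1, the leukocyte adhesion molecule, with a log2 fold change of 3.14 (SE 0.122, adjusted p = 3.45e-07), IER3, an early response gene, with 2.03 (SE 0.0909, adjusted p = 7.68e-07), and TNFRSF9, a receptor of the tumor necrosis factor family, with 2.55 (SE 0.143, adjusted p = 2.74e-06). CXCL11, CXCL10 and NFKBIB were also among them. No test of the group was made, and 28 of the 47 were not called higher.

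The receptors of these ligands were not detectable at this depth in the treated cells. CXCR1 had 0, 0 and 13 counts with vehicle and CXCR2 had 1, 0 and 21, and both had 0 in every guadecitabine library. A count of 0 allows up to 3 counts in a library. A list of 10 genes held receptors, scavengers, related binding partners and the platelet chemokines PPBP, PF4 and PF4V1. Of these, 4 were tested, 1 was higher and 2 lower, beside 19.3% and 18.4% of all genes, with a median log2 fold change of -0.70. Without vehicle replicate 3, 1 was higher and 3 were lower, SDC1 in addition (-0.51, adjusted p = 0.0172), beside 3002 and 2575 of 13296 genes in that fit. SDC4, a heparan sulfate proteoglycan of the cell surface, to which chemokines bind, had normalized counts of 5135 ± 815 with vehicle and 35045 ± 2065 with guadecitabine, a log2 fold change of 2.77 (SE 0.131, adjusted p = 1.07e-06). ACKR3, a scavenger of other CXC chemokines, fell by 2.09 on the log2 scale (SE 0.286, adjusted p = 0.000542), from 121 ± 30.6 to 28.4 ± 4.08 normalized counts. GPC1, a further heparan sulfate proteoglycan, fell by 1.02 (SE 0.184, adjusted p = 0.00244). ACKR1, a chemokine scavenger of red cells and venules, had 0, 0 and 42 counts with vehicle and 11, 3 and 6 with guadecitabine and was not tested.

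The table held 6 further CXC chemokines without the glutamate-leucine-arginine motif, the platelet genes above left aside. Of these, 3 were tested and these 3 were higher, beside 19.3% of all genes higher and 18.4% lower. CXCL9, CXCL12 and CXCL14 had too few counts to be tested, and their groups overlapped. CXCL10, an attractant of T cells through CXCR3, had 8.33 ± 1.44 normalized counts with vehicle and 131 ± 22.7 with guadecitabine, a log2 fold change of 3.95 (SE 0.315, adjusted p = 2.36e-05) and of 4.12 without vehicle replicate 3. CXCL11, a ligand of the same receptor, had 3.31 (SE 0.187, adjusted p = 2.78e-06) and 3.44 without that library. CXCL16, a membrane-bound chemokine, had 2.08 (SE 0.201, adjusted p = 6.93e-05). These fold changes were below those of the 6 members, the smallest of which was 4.37 for CXCL2, but the difference was not tested because the members were chosen by this contrast.

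Among cytokines that induce the neutrophil chemokines, IL1A was 269-fold and IL1B 271-fold higher after guadecitabine. Of 46 cytokines, receptors and adaptors listed, 41 were in the table and 37 were tested, of which 20 were higher and 4 lower, beside 19.3% and 18.4% of all genes, with a median log2 fold change of 0.54. IL17A, IL17C, IL36G and OSM had too few counts to be tested. IL1A, an alarmin of the interleukin 1 family, had 10, 15 and 22 counts with vehicle and 5509, 1787 and 3465 with guadecitabine, a log2 fold change of 8.07 (SE 0.211, adjusted p = 3.32e-08). IL1B, its secreted relative, had 26, 21 and 58 counts and then 11892, 3615 and 8579, a log2 fold change of 8.08 (SE 0.252, adjusted p = 8.6e-08). Without vehicle replicate 3 the log2 fold changes were 8.25 and 8.50. For both, every treated library lay far above every vehicle library, and guadecitabine replicate 1 was the highest after scaling. TNF, the cytokine after which its family is named, had 3, 1 and 18 counts and then 1098, 532 and 939, a log2 fold change of 7.17 (SE 0.379, adjusted p = 1.96e-06) and of 8.83 without vehicle replicate 3. IL6, an inflammatory cytokine induced by the same signals, had 499 ± 35.1 and 11731 ± 237 normalized counts, a log2 fold change of 4.55 (SE 0.111, adjusted p = 2.53e-08).

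Receptors and adaptors of that list were called in both directions. TNFRSF1B, the second receptor of TNF, had a log2 fold change of 2.40 (SE 0.125, adjusted p = 1.86e-06) and IRAK2, a kinase of the interleukin 1 and Toll-like receptor pathways, 1.67 (SE 0.102, adjusted p = 4.61e-06). The genes that fell were TNFRSF1A, the main TNF receptor, by 0.34 (adjusted p = 0.0265), IL17RC and IL17RE, subunits of interleukin 17 receptors, by 0.83 (adjusted p = 0.00443) and 1.24 (adjusted p = 0.000386), and TAB1, an activator of the kinase TAK1, by 1.04 (adjusted p = 0.000306). The call of TNFRSF1A was lost without vehicle replicate 1 or 2 and without guadecitabine replicate 1 or 3. IL1R2, a decoy receptor of interleukin 1, was called higher only without vehicle replicate 3 (log2 fold change 2.09, adjusted p = 0.0103), and with all libraries it had 1.65 (adjusted p = 0.0872).

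Of 21 NF-κB subunits, kinases and inhibitors, all were tested, and 16 were higher and 1 lower, beside 19.3% and 18.4% of all genes, with a median log2 fold change of 0.86. Those with the lowest p were inhibitors, NFKBIZ and the p100 subunit. TNFAIP3 (A20), a ubiquitin-editing inhibitor, had 160 ± 43.7 and 1177 ± 69.3 normalized counts, a log2 fold change of 2.87 (SE 0.181, adjusted p = 5.73e-06). TNIP1, a partner of A20, had 1.85 (SE 0.101, adjusted p = 2.45e-06) and NFKBIZ, a nuclear IκB protein, 1.86 (SE 0.107, adjusted p = 3.09e-06). NFKB2, which encodes p100, had 1.61 (SE 0.108, adjusted p = 8.59e-06). NFKBIB and NFKBIA, which encode IκBβ and IκBα, had 1.72 (SE 0.136, adjusted p = 2.28e-05) and 1.20 (SE 0.0985, adjusted p = 2.76e-05). RELA, the p65 subunit, had a small change of 0.36 (SE 0.104, adjusted p = 0.0237), and its call was lost without guadecitabine replicate 2 or 3 and without any 1 vehicle replicate (adjusted p of 0.053 without vehicle replicate 3). IKBKB, an IκB kinase, fell by 0.31 (SE 0.105, adjusted p = 0.045), and this call was lost on leaving out any 1 library, with an adjusted p of 0.0582 without vehicle replicate 3. REL was not called with all libraries (log2 fold change 0.69, adjusted p = 0.161) and was higher without vehicle replicate 3 (1.20, adjusted p = 0.00302).

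AP-1 and C/EBP factors act beside NF-κB at some of these promoters. Of 16 tested, 5 were higher and 0 lower, beside 19.3% and 18.4% of all genes, and the median log2 fold change was 0.37. CEBPB, a factor of inflammatory gene promoters, had 1.51 (SE 0.145, adjusted p = 6.62e-05), ATF3, a stress-induced factor, 1.31 (SE 0.123, adjusted p = 6.08e-05), and JUNB, an AP-1 subunit, 1.26 (SE 0.194, adjusted p = 0.00103). CEBPG had 0.57 (adjusted p = 0.0065) and JUND 0.50 (adjusted p = 0.0315), and the call of JUND was lost without guadecitabine replicate 2 or 3 and without vehicle replicate 1 or 2. Without vehicle replicate 3, FOSB was higher (1.42, adjusted p = 0.00211) and EGR1 lower by a log2 value of -0.53 (adjusted p = 0.0467).

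Of 18 factors of AU-rich mRNA decay and related turnover, all were tested, 5 were higher and 3 lower, beside 19.3% and 18.4% of all genes, with a median log2 fold change of 0.12. These shares lie near those of all genes, and the values below are of single genes. ZC3H12A (Regnase-1), an endonuclease that cleaves cytokine mRNAs, had 394 ± 26.0 normalized counts with vehicle and 3265 ± 381 with guadecitabine, a log2 fold change of 3.05 (SE 0.128, adjusted p = 5.41e-07). Its relative ZC3H12C had 1.99 (SE 0.164, adjusted p = 2.79e-05), and ARID5A, which protects IL6 mRNA, had 1.31 (SE 0.165, adjusted p = 0.000335). ZFP36 (tristetraprolin), which binds AU-rich elements and hastens decay, had 0.50 (SE 0.0994, adjusted p = 0.0041). PAN2, a deadenylase, fell by 2.20 (SE 0.215, adjusted p = 7.47e-05), and HNRNPD (AUF1), an AU-rich element binding protein, fell by 0.69 (SE 0.104, adjusted p = 0.000887). RC3H2 was higher by 0.81 (adjusted p = 0.00563) and ZFP36L1 fell by 0.41 (adjusted p = 0.00831).

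**Figure D5:**
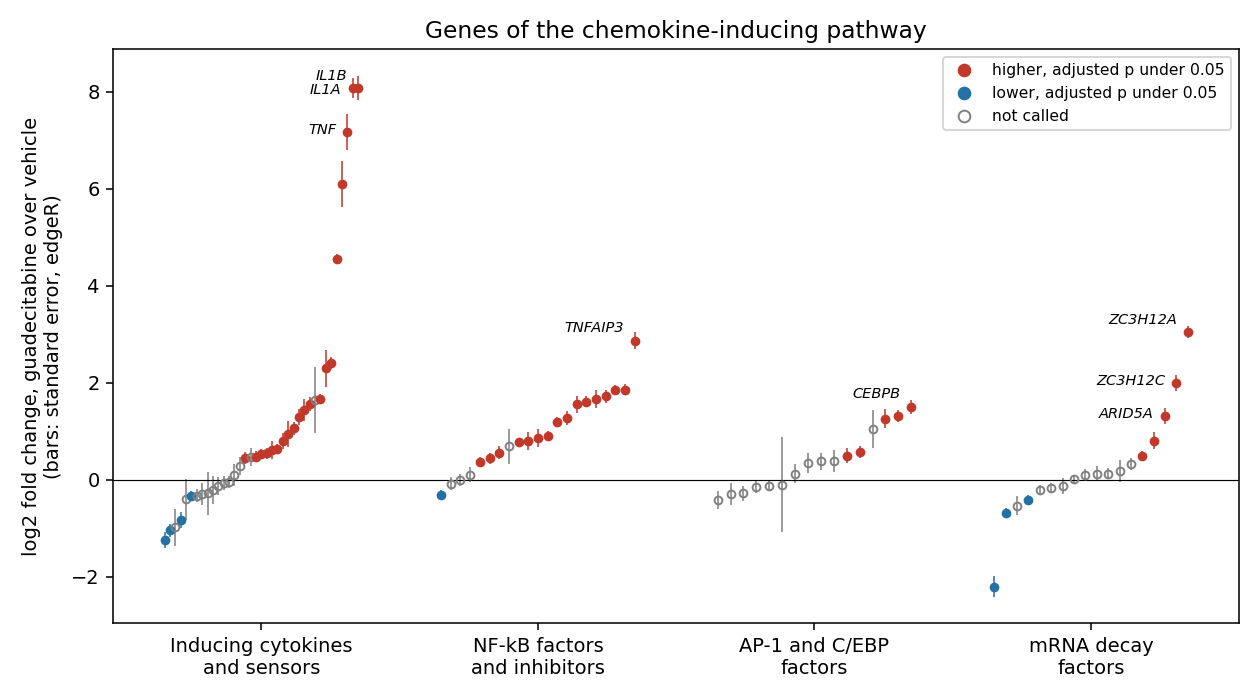
Fitted log2 fold changes of guadecitabine over vehicle (vertical axis) with standard errors from edgeR, 1 point per tested gene, for inducing cytokines and sensors (37 genes), NF-κB genes (21), AP-1 and C/EBP factors (16) and mRNA decay factors (18), sorted within each list. Red points are higher (20, 16, 5 and 5), blue points lower (4, 1, 0 and 3) and open grey points not called, and IL1A, IL1B and TNF stand above all others.

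Markers of leukocytes, which make these chemokines in tissue, were checked because the genes above are also those of inflamed cells. Of 16 listed, 11 were in the table, 4 were tested, and 2 were higher, beside 19.3% of all genes. CSF3R, MPO, CD4 and CD163 were at 0 in every guadecitabine library, and PTPRC (CD45) had 3, 0 and 2 counts there. In vehicle replicate 3 these genes had 14 to 48 counts, and in vehicle replicates 1 and 2 they had 0 to 2. The higher genes were CD68, a lysosomal protein also made by tumor cells, with 3092 ± 182 and 7489 ± 165 normalized counts (log2 fold change 1.27, adjusted p = 1.69e-05), and HBA1, a hemoglobin gene, with 12, 13 and 17 counts and then 46, 23 and 41 (1.70 with and without vehicle replicate 3, adjusted p = 0.0157 with it), whose call was lost without any 1 guadecitabine library or vehicle replicate 1. The summed counts of the list were 3082 to 4767 with vehicle and 3877 to 9318 with guadecitabine, most of them from CD68.

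Genes were ranked by the likeness of their profile to that of the members. Over the 6 libraries and among 10416 genes with a mean of at least 100 normalized counts, 158 had a Pearson correlation above 0.99 with the mean standardized profile of the 6 genes. With 2 groups set far apart, such a value is reached by a gene that differs between them and is even within each, and it is given as a description. Among the closest were IL2RG, the common gamma chain of interleukin receptors, at 0.9993, and PLA2G4C, a phospholipase gene, ICAM2, an adhesion molecule gene, and MAGEB1, a cancer/testis gene, at 0.9991 each. Their log2 fold changes ranged from 1.91 for ICAM2 to 8.91 for MAGEB1, so that likeness of profile did not mean likeness of size. That of IL2RG was 4.69. MAGEB1 had 0, 0 and 1 counts with vehicle, all under the floor of 3, so that its value depends on the prior count. It passed the filter through the guadecitabine libraries alone.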

How the data were processed

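MDA-MB-231 libraries, 3 with vehicle and 3 with guadecitabine, were grouped by their labels. Per the labels and the study's methods, the authors aligned reads to hg19 with STAR 2.3.1z and deposited raw counts of exon reads per RefSeq transcript with the exon length counted. They also deposited regularized log values of DESeq2 on the log2 scale, used here only as an alternative scale of levels, and their own fold changes and p-values, which were not used. How reads with several matches were treated is not given in the sources used here.

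The members and the gene lists were chosen with earlier results of these data known. Counts were tested with the quasi-likelihood test of edgeR 4.0.16 in R 4.3.3 (TMM scaling, filterByExpr with a minimum count of 10, Benjamini-Hochberg adjustment over 13322 genes, threshold 0.05), after a check on simulated counts. TMM factors were 0.957 to 1.046. The alternatives were DESeq2 1.42.0, its size factors, library totals, other filters, a fold threshold of 2, a replicate block, and each library left out. Depth was 8792127 to 22277442 counts, and intervals and the floor of 3 counts cover counting error only. The smallest exact permutation p of 3 against 3 is 0.1. Per-kb levels divide normalized counts by the deposited exon length. Promoter and transcript sequences came from GRCh37 and GENCODE release 44. Named genes are all members, up to 6 called genes of lowest p in each list, CXCR1 and CXCR2, the called and nearest chromosome 4 neighbours, and the 5 closest profiles, 1 of which is not reported here. Other genes named without vehicle replicate 3, in the marker lists or with the κB letters were chosen after their values were seen.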

Additional observations from a re-analysis of the deposited data

How the results depend on the processing

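The direction of the 6 chemokines follows from their choice and is no sign of stability. With at least 10 counts in every library CXCL5 and CXCL6 could not be fitted. On leaving out 1 library their fold changes ranged from 8.36 to 10.94 and from 5.30 to 9.64 (log2), both highest without vehicle replicate 3, which also made most of their spread in vehicle. The fold changes of the other 4 moved by less than the replicate spread in all alternatives. The fold threshold of 2 reduced the genes higher and lower from 2576 and 2446 to 435 and 261, receptors lower to 1, inducing cytokines and sensors to 9 higher and 0 lower, NF-κB genes to 7 higher and 0 lower, AP-1 and C/EBP factors higher to 1, decay factors to 2 higher and 1 lower, and leukocyte markers higher to 1. NF-κB genes lower were 0 with library totals only, with no filter and on leaving out any library (0 to 0). Leaving out 1 library gave 1706 to 3002 genes higher and 1629 to 2575 lower, lowest without guadecitabine replicate 3, 0 to 1 AP-1 and C/EBP factors lower, 1 to 2 leukocyte markers higher and 2 to 4 neighbours higher. The neighbours higher were 1 with at least 10 counts in every library. DESeq2 called 5331 genes in all, against 5022 by edgeR.

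The deposited regularized log values, raised from log2, gave compressed levels per kb, with vehicle and then guadecitabine 195 and 8183 for CXCL1, 175 and 1678 for CXCL2, 85.3 and 635 for CXCL3, 10.1 and 324 for CXCL5, 13.0 and 19.1 for CXCL6, and 316 and 8286 for CXCL8. On that scale CXCL6 exceeded CXCL5 with vehicle, and CXCL3 exceeded CXCL5 with guadecitabine. The cause was not tested.

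The replicate block gave 4654 calls and 0 NF-κB genes lower, and it ended the calls of RELA, IKBKB, TNFRSF1A, VIM and CDH1 among listed genes. Same-numbered libraries did not deviate together over all genes tested (r = -0.0274, 0.0305 and -0.0273). Whether they came from the same experiment is not stated, and with 3 libraries per group these values cannot settle it.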
